A study of Mus musculus with 16 samples.

Results

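Activity-induced immediate early genes are genes whose transcripts appear in a neuron soon after it fires, before any new protein has been made. A list of 32 of them was followed here in hippocampal RNA of mice on 2 diets. Of the 32, 30 had a probe set above the filter on low values and were among the 12266 genes tested. Egr4, a zinc finger transcription factor, averaged 2.92 log2 units over all arrays and Sik1, a salt-inducible kinase, averaged 3.29, both below the filter at 3.58. Atf3, a stress-responsive transcription factor of the CREB family, lay just above it at 3.73. For each gene the probe set with the highest mean over the 16 arrays among those annotated with that symbol alone was used.

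The PIO group was 8 female 3xTG-AD mice given a diet with pioglitazone (PIO) at 84 ppm, about 18 mg per kg of body weight a day, for about 14 weeks from 10 months of age. The control group was 8 female 3xTG-AD mice on the control diet over the same time. All 16 animals were 14 months old and all carry the 3xTg-AD transgenes, a model of Alzheimer's disease with mutant APP, presenilin 1 and tau, so no animal without the transgenes was compared. Each array held RNA of the hippocampus of 1 numbered animal (PIO animals 9 to 16, control animals 1 to 8). PIO is a thiazolidinedione, a drug class that activates the nuclear receptor PPAR gamma. The study set out to find PIO-sensitive hippocampal genes tied to learning and memory, and the question here was whether genes that report recent neuronal activity differed between the diets, and whether they varied together between animals.

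Calcium entering through NMDA receptors and voltage-gated channels activates kinases that phosphorylate CREB and the partners of serum response factor, which already sit on the promoters of these genes. Many of the products are transcription factors that act on a later set of genes, others shut the kinase signal off again, and a few act at the synapse. In the hippocampus Arc, Fos, Egr1 and Npas4 are widely used to mark neurons that were active during exploration or learning. Their transcripts decay within hours, so a tissue sample reads the time just before death. When and after what behaviour the animals were killed is not given in the labels.

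Arrays had medians between 5.65 and 5.76 log2 units. With 8 arrays a diet the precision of each difference depends on the number of animals and on the spread between them. Markers of the hippocampus were present: 8 of 8 dentate granule cell genes and 7 of 8 pyramidal cell genes lay above the filter. Array numbers in the labels were 1 to 6 for 2 PIO and 4 control animals and 10 to 24 for 6 PIO and 4 control animals, and their meaning is not given. A code at the end of the array descriptions, also of meaning not given, took 3 values and is called array batch here. Of 12 striatal markers 8 lay above the filter, all 8 higher with PIO, while Drd2 and Ido1 were below it. At an unadjusted p under 0.05 there were 3 of the 8, against 7.00% of all genes. The summed level of the striatal markers ran from 12.3 to 13.5 log2 units in PIO animals, against 12.1 to 12.7 in controls. The mean of these markers, centred on the 16 animals, was highest in PIO animals 15 and 14 (1.05 and 0.85 log2 units), against 0.056 or less in the other 6 PIO animals and between -0.49 and 0.32 in the controls. Differences with this mean as a covariate are given below. Of the other lists, 7 of 7 thalamus and habenula markers (12.0 to 12.9 summed log2 units with PIO, 11.9 to 12.3 in controls) and 11 of 11 choroid plexus markers (10.8 to 16.8 with PIO, 11.8 to 16.8 in controls) had a higher mean with PIO. By contrast 0 of 7 myelin, 1 of 7 microglial, 1 of 8 astrocyte, 1 of 8 dentate granule cell, 2 of 7 endothelial and 2 of 7 pyramidal cell markers did, and 4 of 6 of pericytes and smooth muscle. Among all 12266 genes 6463 had a higher mean with PIO. Lower with PIO at an unadjusted p under 0.05 were 3 of 7 microglial, 2 of 7 myelin and 2 of 8 astrocyte markers. So were 1 of 7 endothelial and 1 of 8 dentate granule cell markers. Higher at that threshold was 1 of 7 thalamus and habenula markers. The choroid plexus, pericyte and pyramidal cell lists had 0. The dentate granule cell mean was lowest in PIO animals 14 and 15 (-0.62 and -0.57). The choroid plexus and endothelial means were also run as covariates of the diet difference, and the part of the other lists in it was not tested. In bulk tissue, fewer cells of a type and less RNA per cell cannot be told apart.

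None of the 30 genes differed between the diets past an adjusted p of 0.05 by limma, as none of the 12266 genes did (0% of all). At an unadjusted p under 0.05 there were 2 of the 30 (6.67%), against 7.00% of all genes, so the share of these genes was near that of the whole table. Nr4a3 was lower with PIO and Klf10 was higher. Without PIO animal 15 there was 1 such member (4.69% of all genes), without control animal 6 there was 1 (6.87% of all genes), and without PIO animal 10 there were 5 (9.27% of all genes). In all, 20 of the 30 (66.7%) had a lower mean with PIO and 10 a higher one, against 47.3% of all genes lower. The median difference was -0.06 log2 units against 0.0045 for all genes. Several members varied together between animals, as given below, so the 30 directions are not separate observations.

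Nr4a3, an orphan nuclear receptor of the Nur77 family, had the smallest p of the list. Its values in PIO animals ran from 10.50 to 11.11 with a median of 10.80, against 10.89 to 11.33 with a median of 11.04 in control animals. 6 of the 8 PIO animals lay below the lowest control, and the groups overlapped in PIO animals 10 and 13 only. The difference was -0.27 log2 units (SE 0.088, unadjusted p = 0.00753, adjusted p = 0.644 by limma), and an exact two-sided permutation over all splits into 8 and 8 animals gave p = 0.0121. Its other 2 probe sets averaged 2.40 and 1.86, below the filter, and did not follow the first over animals (r of 0.03 and -0.36). With the striatal marker mean as a covariate the difference was -0.16, and in the largest array batch alone it was -0.12.

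Nr4a1 and Nr4a2 are the other members of its family. Nr4a1 (Nur77) had PIO values from 10.07 to 11.24 with a median of 10.97, against 10.55 to 11.38 with a median of 11.05 in controls. PIO animals 9 and 11 lay below every control and the other 6 PIO animals lay among them. The difference was -0.24 (SE 0.18). Nr4a2 (Nurr1) averaged 12.33 ± 0.20 log2 units with PIO and 12.19 ± 0.27 in controls (SD, n = 8 each), a difference of 0.14 (SE 0.11). Its 3 other probe sets above the filter differed by 0.13 to 0.20, the last at an unadjusted p of 0.0363, and followed the first with r between 0.65 and 0.87.

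Klf10, a zinc finger factor also known as TIEG1 and induced by TGF-beta, was at 10.02 to 10.75 in PIO animals with a median of 10.21, against 9.62 to 10.29 with a median of 10.06 in control animals. Only PIO animal 15 lay above the highest control. The difference was 0.24 (SE 0.10, unadjusted p = 0.0331, adjusted p = 0.681 by limma; exact permutation p = 0.0325). PIO animal 15 also had the highest striatal marker mean, and without PIO animals 14 and 15 the difference was 0.15 (SE 0.089). With the striatal marker mean as a covariate it was 0.13. Klf4, a Krüppel-like factor of the same family, was 0.17 higher with PIO (SE 0.16), with PIO values inside the control range. Klf2, a factor abundant in endothelium, was at 6.77 to 8.14 in PIO animals with a median of 7.64, against 6.78 to 8.88 with a median of 7.85 in controls (difference -0.25, SE 0.26). Leaving out 1 animal gave Klf2 differences between -0.41 (control animal 5 left out) and -0.11 (control animal 3 left out), and with the choroid plexus marker mean as a covariate it was -0.43.

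**Figure D1:**
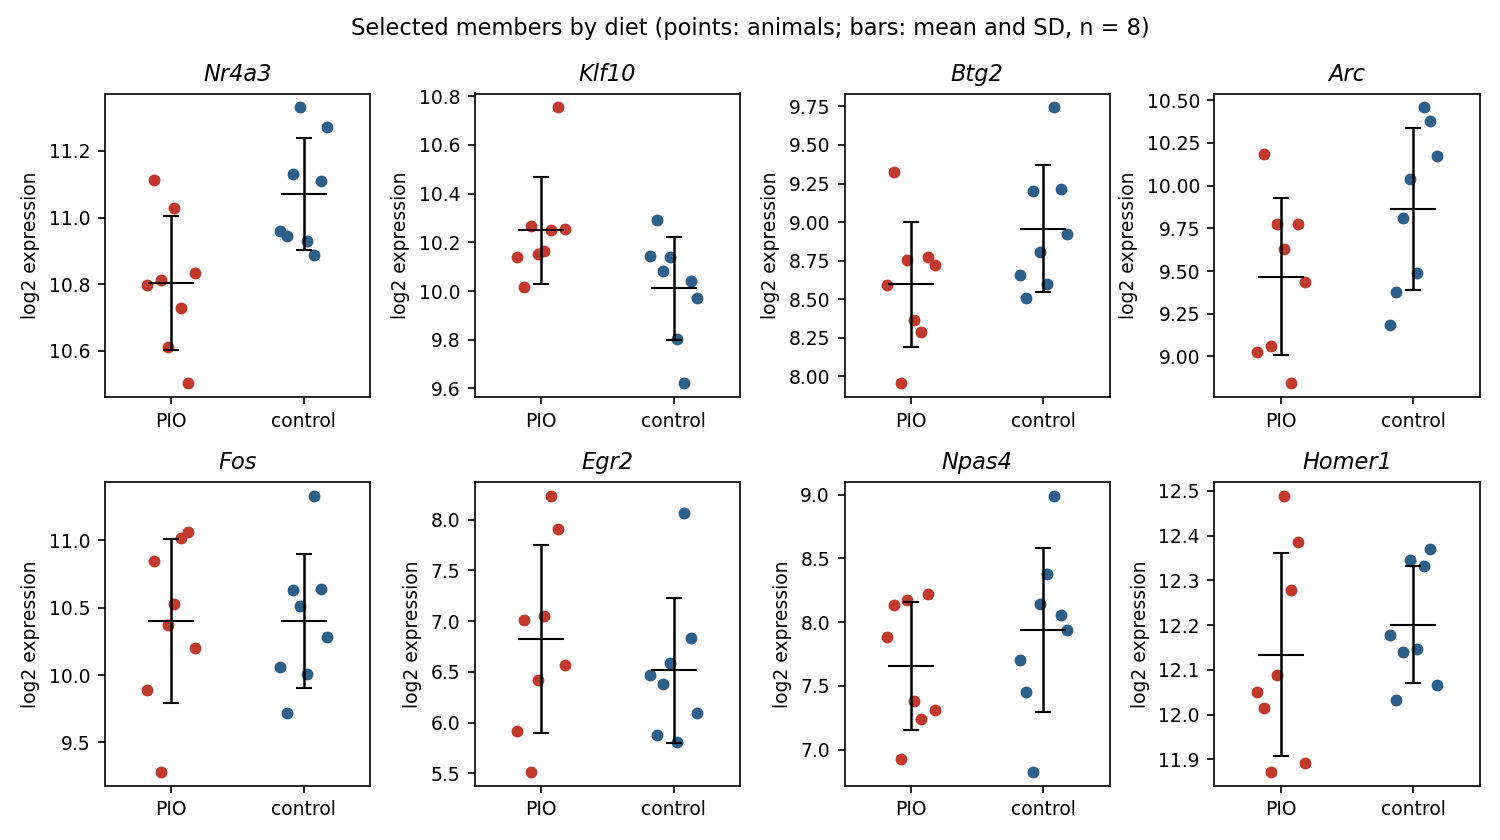
Log2 expression of 8 members in each animal (y axis), PIO animals on the left and control animals on the right of each panel, with the mean and SD of 8 animals as black bars. In the Nr4a3 panel 6 of 8 PIO animals sit below the lowest control, in the Klf10 panel 1 PIO animal sits above the highest control, and the groups overlap widely for Fos and Homer1.

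Fos, the founding member of the AP-1 family of transcription factors, had the same mean in both diets. Its values in PIO animals were from 9.28 to 11.06 with a median of 10.45, against 9.72 to 11.33 with a median of 10.40 in control animals. The values of each diet spread over more than 1 log2 unit and overlapped nearly throughout. The difference of the means was 0.0016 log2 units with an SE of 0.26. A difference as large as the SE, or somewhat larger, could also not be told from none. With the striatal marker mean as a covariate the difference of Fos was -0.23. Junb, another AP-1 subunit, was at 9.15 ± 0.33 with PIO and 9.20 ± 0.22 in controls (SD, n = 8 each). Fosb differed by 0.10 (SE 0.11) and Atf3, near the filter, by -0.07 (SE 0.052). Jun, the usual partner of Fos in AP-1, differed by 0.09 (SE 0.066), with 4 PIO animals above the highest control, but a second Jun probe set that followed the first over animals (r = 0.78) differed by 4.0e-05.

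The Egr genes encode zinc finger factors that bind GC-rich promoters. Egr1 (Zif268), much used as a marker of synaptic plasticity, was at 12.31 to 13.24 in PIO animals with a median of 12.66, against 12.18 to 13.17 with a median of 12.81 in control animals. The groups covered nearly the same range, with a difference of -0.05 (SE 0.16). Egr2 (Krox20) had the widest spread of all members, from 5.51 to 8.24 with a median of 6.79 in PIO animals, against 5.81 to 8.06 with a median of 6.42 in controls. Its difference of 0.31 (SE 0.38) was carried by PIO animals 14 and 15, at 8.24 and 7.90, and without them it was -0.10. It was -0.14 with the striatal marker mean as a covariate. Egr3 differed by 0.02 (SE 0.082). Its other probe set averaged 1.53, below the filter, and did not follow the first over animals (r = -0.11).

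Npas4, a neuron-specific factor induced by depolarization and not by growth factors, was at 6.93 to 8.22 in PIO animals with a median of 7.63, against 6.83 to 8.99 with a median of 8.00 in controls. The PIO values all lay within the control range, and the difference was -0.28 (SE 0.27). Leaving out 1 animal gave values between -0.44 (control animal 3 left out) and -0.13 (control animal 6 left out).

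Among the co-regulators, Btg2, an antiproliferative protein that recruits the CCR4-NOT deadenylase, was lower with PIO by the third smallest p of the list. PIO animals ran from 7.96 to 9.32 with a median of 8.66, against 8.51 to 9.74 with a median of 8.86 in controls. PIO animals 11, 13 and 14 lay below every control. The difference was -0.36 (SE 0.19, unadjusted p = 0.0758), and a second Btg2 probe set that followed it (r = 0.83) gave -0.13. Ier2 and Ier5, nuclear proteins named for their immediate early response, differed by -0.11 (SE 0.098) and -0.01 (SE 0.11). Ier2 was tight with PIO (7.69 ± 0.061) and wide in controls (7.80 ± 0.28, SD, n = 8 each).

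The signalling inhibitors were 6 of 7 lower on average with PIO, against 47.3% of all genes, with none at an unadjusted p under 0.05. Dusp1, Dusp4, Dusp5 and Dusp6 are phosphatases that inactivate MAP kinases. Dusp4 was at 8.54 to 9.05 in PIO animals with a median of 8.84, against 8.76 to 9.20 with a median of 8.97 in controls, a difference of -0.14 (SE 0.082) with 4 PIO animals below the lowest control. Dusp1 was at 9.73 to 11.12 in PIO animals with a median of 10.64, against 10.11 to 11.47 with a median of 10.42 in controls (difference -0.09, SE 0.22). Dusp5, specific for ERK, was at 8.29 to 8.97 in PIO animals with a median of 8.53, against 8.13 to 9.24 with a median of 8.71 in controls (difference -0.18, SE 0.14). Both pairs of ranges overlapped widely, and Dusp6, also an ERK phosphatase, differed by -0.06 (SE 0.094). Plk2, a polo-like kinase that acts in homeostatic synaptic scaling, differed by -0.08 (SE 0.053) and Gadd45b, which acts in activity-dependent DNA demethylation, by -0.03 (SE 0.083). Rgs2, which speeds the turn-off of Gq-coupled signalling, was the 1 with a higher mean, at 12.00 ± 0.19 with PIO and 11.89 ± 0.099 in controls (SD, n = 8 each), a difference of 0.11 (SE 0.073) with 4 PIO animals above the highest control.

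Of the synaptic and secreted effectors 4 of 5 had a lower mean with PIO, against 47.3% of all genes. Arc, which drives AMPA receptor endocytosis at active synapses, had the largest negative difference of the 30. It was at 8.84 to 10.18 in PIO animals with a median of 9.53, against 9.18 to 10.46 with a median of 9.92 in controls. PIO animals 9, 11 and 14 lay below every control and no PIO animal lay above the highest one. The difference was -0.40 (SE 0.22, unadjusted p = 0.0857, adjusted p = 0.754 by limma), a 0.760-fold level. Homer1, a postsynaptic scaffold with a short activity-induced form, was at 11.87 to 12.49 in PIO animals against 12.03 to 12.37 in controls and differed by -0.07 (SE 0.088). Its 5 other probe sets, which followed the first with r between 0.69 and 0.95, differed by -0.05 to 0.22. Ptgs2 (cyclooxygenase 2) differed by -0.12 (SE 0.097) and Inhba, a subunit of activin, by -0.09 (SE 0.12). Nptx2 (Narp), a secreted pentraxin that clusters AMPA receptors, was higher by 0.11 (SE 0.15), with values from 8.08 to 9.27 in PIO animals against 8.46 to 8.99 in controls. A second Nptx2 probe set, near the filter with a mean of 4.16, followed the first (r = 0.89) and differed by -0.08 (SE 0.25).

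With the striatal marker mean as a covariate no member was called either. At an unadjusted p under 0.05 there was then 1 of 30, against 4.05% of all genes. That was Jun at 0.19 (SE 0.056, unadjusted p = 0.00426 by limma), while Nr4a3 (unadjusted p = 0.0694) and Klf10 (unadjusted p = 0.225) were no longer among them. PIO animals 14 and 15, with the highest striatal marker means, had the lowest Jun values of the PIO group (11.52 and 11.65). Without the covariate the second Jun probe set differed by 4.0e-05. The differences of Arc (-0.36), Btg2 (-0.36) and Npas4 (-0.27) stayed near their values. Those of Dusp4 (-0.05), Dusp5 (-0.05), Rgs2 (0.01) and Nptx2 (0.0022) came closer to 0. Those of Nr4a1 (-0.39), Dusp1 (-0.27), Egr1 (-0.22), Junb (-0.20) and Homer1 (-0.15) moved, as did that of Jun, further from it.

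In arrays 10 to 24 alone (6 PIO and 4 control animals), 6 of 30 members stood at an unadjusted p under 0.05, against 7.63% of all genes, and none of the 12266 genes passed adjustment (0%). Klf10 was higher by 0.45 (SE 0.13). Npas4 differed by -0.80 (SE 0.29), Arc by -0.70 (SE 0.23), Btg2 by -0.64 (SE 0.23), Nr4a3 by -0.30 (SE 0.11) and Ier2 by -0.29 (SE 0.12). The smallest adjusted p of these by limma was 0.563. Arc, Btg2, Ier2 and Npas4 varied together over all 16 animals, with pairwise r between 0.55 and 0.80 within diet. The 6 members are thus not separate observations. Control animal 6, among the 4 controls in these arrays, had the highest value of all 16 animals for Arc, Btg2, Ier2 and Npas4. Arc in these arrays was at 8.84 to 9.78 in PIO animals with a median of 9.53, against 9.49 to 10.46 with a median of 10.27 in control animals. In arrays 1 to 6 the mean of Arc was 9.60 in both the 2 PIO and the 4 control animals. In the largest array batch alone (6 PIO and 5 control animals) 0 of 30 members stood at an unadjusted p under 0.05, against 2.36% of all genes, and Arc differed by -0.24 there.

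The test of whether the diet difference itself differed between the array number ranges called 0 of 30 members by limma, and 0.0245% of all genes. At an unadjusted p under 0.05 there were 4 of 30, against 6.46% of all genes, and 1 without PIO animal 10. The term is the PIO minus control difference in arrays 1 to 6 less that in arrays 10 to 24, and it was -0.53 (SE 0.18) for Klf10, 1.27 (SE 0.50) for Npas4, -0.60 (SE 0.27) for Nptx2 and 0.40 (SE 0.18) for Ier2. Npas4 averaged 8.01 in PIO and 7.53 in control animals of arrays 1 to 6, and 7.54 in PIO and 8.34 in control animals of arrays 10 to 24. Its order of the diets thus turned between the ranges, with 2 PIO animals behind the first value.

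**Figure D2:**
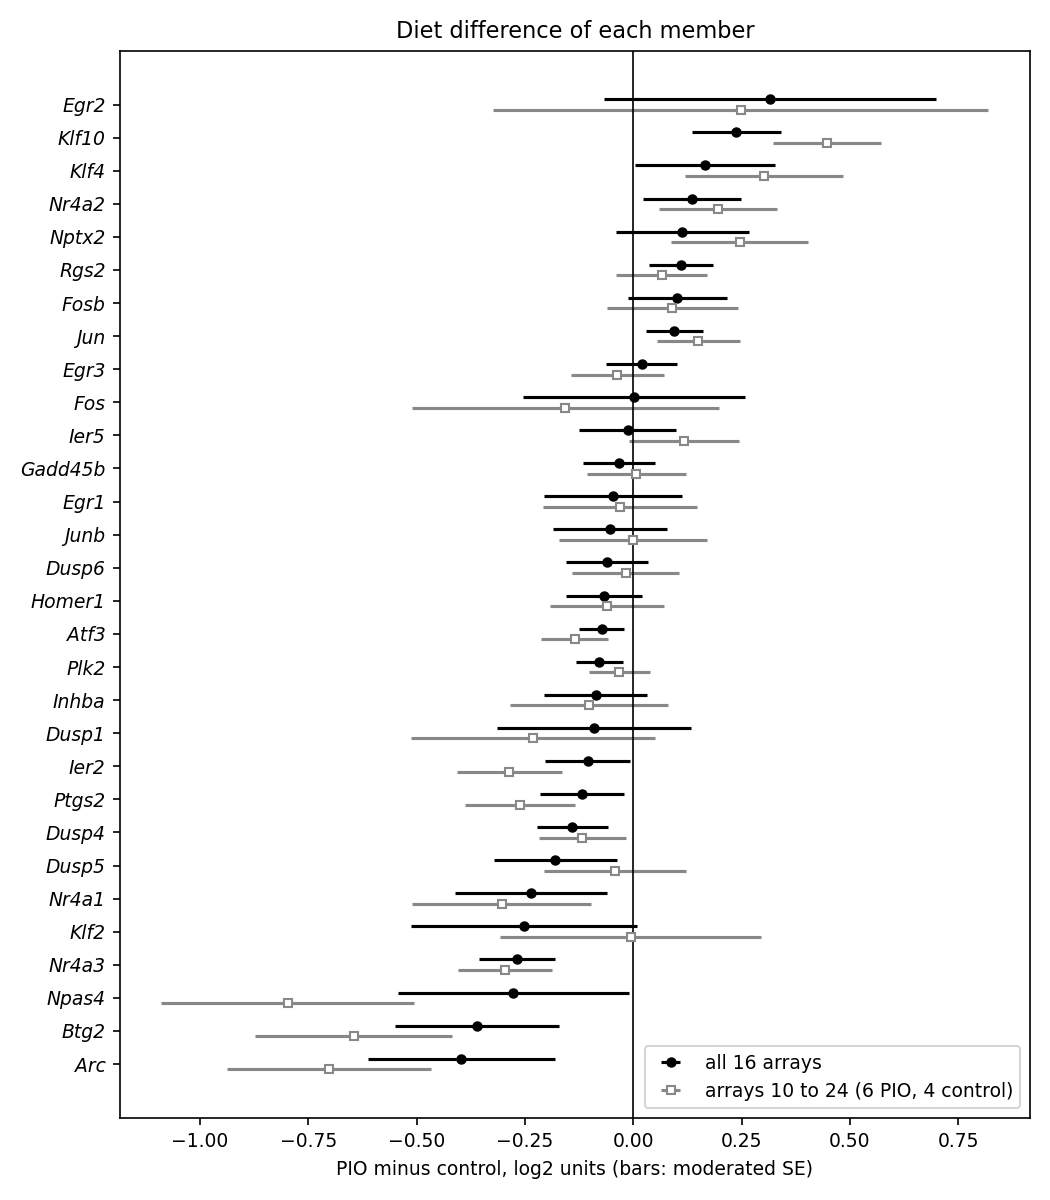
PIO minus control difference of each of the 30 members in log2 units (x axis), with bars of 1 moderated SE, over all 16 arrays (filled circles) and over arrays 10 to 24 alone (open squares). Arc, Btg2 and Npas4 sit lowest and move further down in arrays 10 to 24, while Klf10 moves further up to 0.45.

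Array number itself, with diet as a term, called 0 of 30 members and 0.00815% of all genes. At an unadjusted p under 0.05 there was 1 of 30, against 10.2% of all genes, and between 0 and 3 with 1 animal left out. That was Nptx2, from 8.08 to 8.99 with a median of 8.50 in arrays 1 to 6, against 8.36 to 9.27 with a median of 8.82 in arrays 10 to 24 (difference low minus high -0.32, SE 0.15, adjusted p = 0.480 by limma). Egr1 and Nr4a1 were both lower in arrays 1 to 6, by differences of -0.30 (SE 0.16) and -0.30 (SE 0.18), and Dusp5 was higher by 0.26 (SE 0.14), none at an unadjusted p under 0.05.

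The members varied more between animals of the same diet than most genes did. Of the 30, 28 had a within-diet SD above the median of all genes (0.13 log2 units) and 21 above the 75th percentile (0.19). The median SD was 0.24, from 0.10 for Atf3 to 0.83 for Egr2. The order of the animals differed between members. PIO animal 15 was the highest of the 16 for 6 members, against 8.27% of all genes, and control animal 6 for 7, against 4.08% of all genes. PIO animal 11 was the lowest for 7 members, against 14.8% of all genes.

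**Figure D3:**
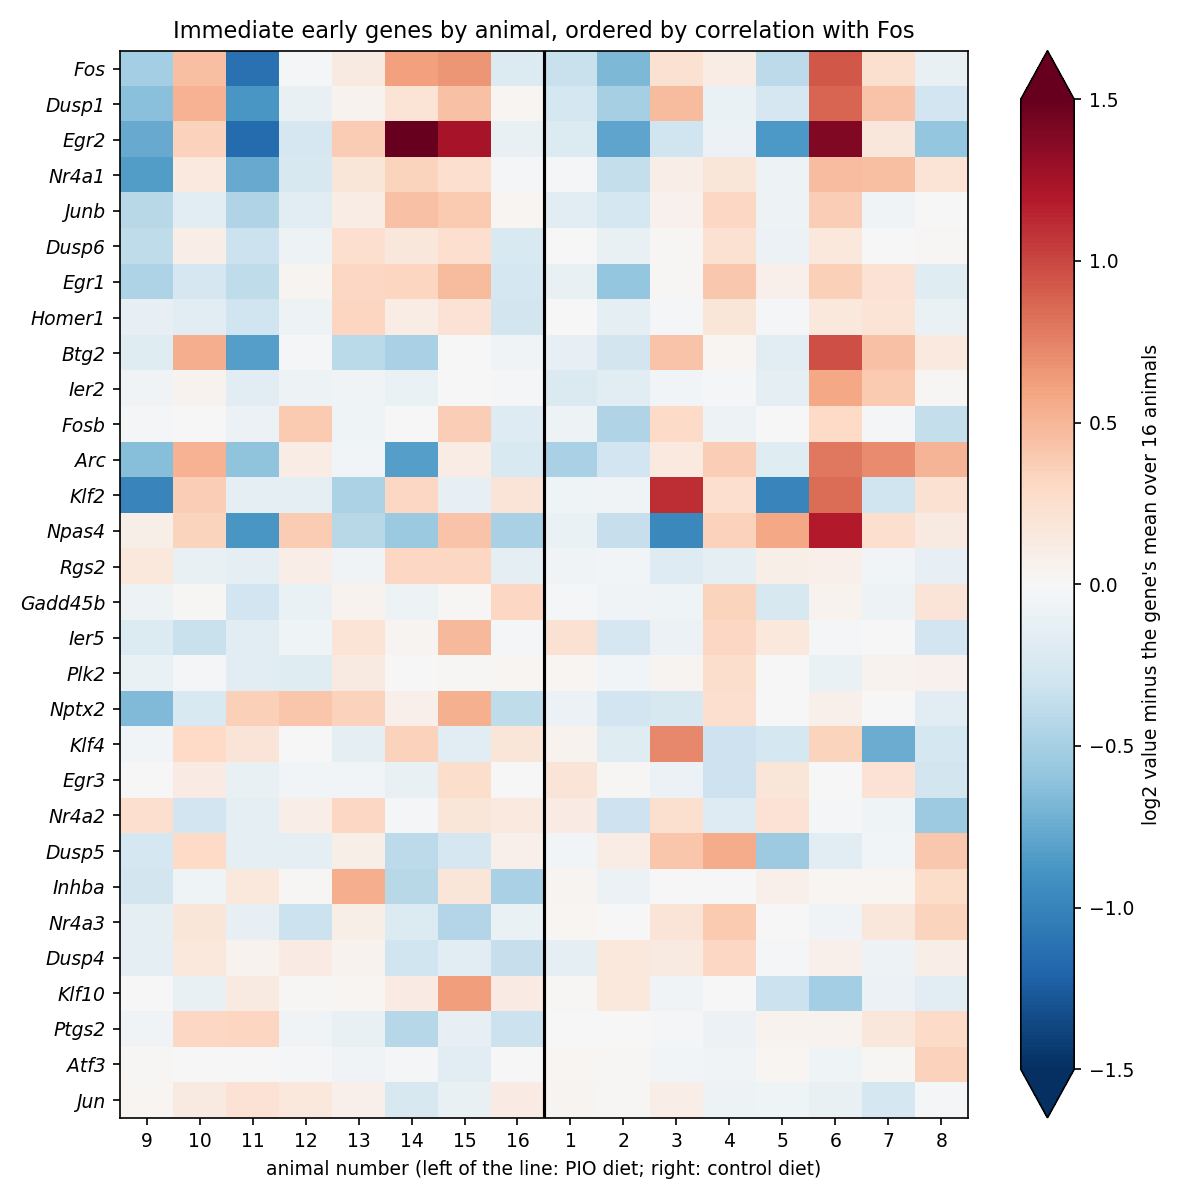
Log2 value of each member minus its mean over 16 animals (colour), with 1 column per animal, PIO animals left of the line and control animals right of it, and rows ordered by correlation with Fos. The top rows are high together in PIO animals 14 and 15 and control animal 6 and low together in PIO animals 9 and 11, and the lower rows do not follow them.

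Fos was used as the anchor for co-variation between animals. Its values were 9.89, 10.85, 9.28, 10.37, 10.53, 11.02, 11.06 and 10.20 in PIO animals 9 to 16, against 10.06, 9.72, 10.63, 10.51, 10.01, 11.33, 10.64 and 10.28 in control animals 1 to 8. Over all 16 animals 4 of the 29 other members correlated with Fos past an adjusted p of 0.05 over 12265 genes (100000 permutations, two-sided), against 0.122% of all genes. They were Dusp1 (Pearson r = 0.93, Spearman rho = 0.92), Egr2 (r = 0.91, rho = 0.89), Nr4a1 (r = 0.84, rho = 0.87) and Junb (r = 0.83, rho = 0.76), all with an adjusted permutation p between 0.0409 and 0.0472. By Spearman's rho the smallest adjusted permutation p was 0.0613 and no member passed. The smallest p that these permutations can give is 1e-05, and how many genes reach it decides the adjusted value. With 1 animal left out between 0 and 6 members were called, 0 without PIO animal 11, 14 or 15 or control animal 2, 3 or 6, 2 without control animal 4 and 6 without PIO animal 10.

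These 4 genes were chosen by their correlation with Fos over all the animals. Their r in smaller sets of the same animals is therefore not separate evidence. It shows only how far the relation rested on the animals left out. PIO animal 11 and control animal 6 were farthest from the median of Fos, and without them r was 0.87 for Dusp1, 0.88 for Egr2, 0.74 for Nr4a1 and 0.74 for Junb. Within arrays 10 to 24 the coefficients were 0.94, 0.93, 0.88 and 0.92, and within the largest array batch 0.95, 0.91, 0.88 and 0.86, in the same order. No adjusted call was made in any of these smaller sets. A second Egr2 probe set, which followed the first with r = 0.95, correlated with Fos at r = 0.92 within diet.

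A second fit, chosen after the permutation calls had been seen, regressed every gene on Fos with diet as a term in limma. It called 3 of 29 members (0.0489% of all genes, 6 genes in all): Egr2 with a slope of 1.38 log2 units per log2 unit of Fos (SE 0.15, adjusted p = 5.10e-04), Dusp1 with 0.81 (SE 0.082, adjusted p = 5.07e-04) and Nr4a1 with 0.60 (SE 0.083, adjusted p = 0.0106). Junb had a slope of 0.42 (SE 0.075, adjusted p = 0.0619). The other 3 genes called were Tmem245, Tbl1x and Rundc1. At an unadjusted p under 0.05 there were 13 of 29 members, against 17.4% of all genes. Egr2 thus varied by more than Fos did and Nr4a1 by less. Without PIO animal 10 the fit called 8 members and 5.85% of all genes, and without PIO animal 11, without control animal 2, without PIO animals 14 to 16, or with the striatal or the astrocyte marker mean as a covariate it called 2 members, Dusp1 and Egr2. The call of Nr4a1 was thus lost in each of these 5 fits. In arrays 10 to 24 Egr2 alone was called, and in the largest batch Dusp1 alone.

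**Figure D4:**
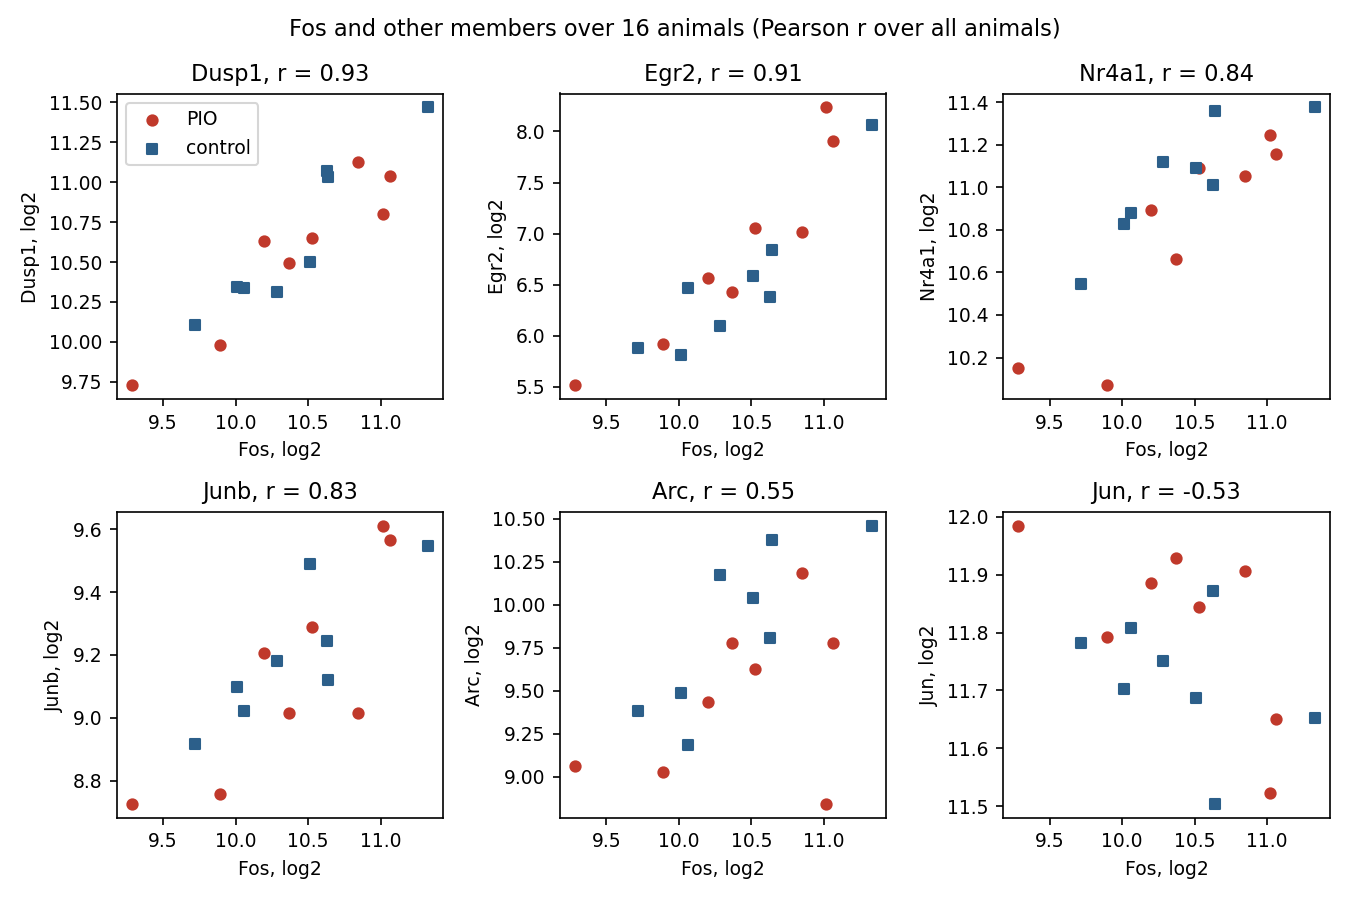
Log2 expression of 6 members (y axes) against that of Fos (x axes) in 16 animals, PIO animals as red circles and control animals as blue squares, with Pearson r over all animals. Dusp1 and Egr2 follow Fos along a line in both diets (r = 0.93 and 0.91), Arc does so loosely (r = 0.55) with 1 PIO animal far below the others at its Fos value, and Jun runs the other way (r = -0.53).

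The genes most used to mark active neurons did not all follow Fos closely. Egr1 correlated with Fos at r = 0.75 and rho = 0.75 (permutation p = 7.2e-04, adjusted p = 0.104). Arc correlated with Fos at r = 0.55 and rho = 0.59 (permutation p = 0.0284, adjusted p = 0.241), and Npas4 at r = 0.45 (adjusted permutation p = 0.359). Btg2, not 1 of those markers, did so at r = 0.65 (adjusted permutation p = 0.167). Leaving out PIO animal 11 and control animal 6 narrows the range of Fos. Without them the coefficients of Egr1, Arc, Btg2 and Npas4 were 0.72, 0.32, 0.28 and -0.01. The relation of Npas4 with Fos thus rested on those animals, and those of Arc and Btg2 were weaker without them. In PIO animal 14 Fos and Arc parted: its Fos value of 11.02 was the second highest among PIO animals, while its Arc value of 8.84 was the lowest of all 16. In that animal the striatal marker mean was high (0.85) and the dentate granule cell marker mean was the lowest of all 16 (-0.62). Their part in this was not tested.

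Jun stood opposite to its AP-1 partner. It was at 11.52 to 11.98 in PIO animals with a median of 11.86, against 11.50 to 11.87 with a median of 11.73 in controls, and its correlation with Fos was -0.53 (permutation p = 0.0370, adjusted p = 0.263). The coefficient was -0.34 without PIO animal 11 and control animal 6, and -0.38 within diet for the second Jun probe set. Jun had r below -0.5 with 7 of the 29 others and above 0.5 with none.

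Over all 435 pairs of the 30 members the median r of deviations from the diet means was 0.13, and 17.2% of pairs lay above 0.5. Over all pairs of the 12266 genes the median was 0.02 and 7.70% lay above 0.5. Among the genes upstream of the activity response, described below, 13.7% of pairs lay above 0.5. Among the other activity-induced genes, also described below, 13.0% did. A share above that of all gene pairs was thus not particular to the members. These pairs share the 16 animals and the members share genes, so the values are a description. The closest pairs were Fos with Dusp1 (0.93), Fos with Egr2 (0.92), Fos with Nr4a1 (0.88), Junb with Egr2 (0.87) and Egr1 with Homer1 (0.87). At the other end stood Dusp5 with Rgs2 (-0.74) and Jun with Rgs2 (-0.73). The list thus held a tight core, a looser set and several genes that did not move with the core, among them Egr3, Nr4a2, Nr4a3, Dusp4, Dusp5, Inhba and Klf10, whose r with Fos lay between -0.13 and 0.12 within diet.

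**Figure D5:**
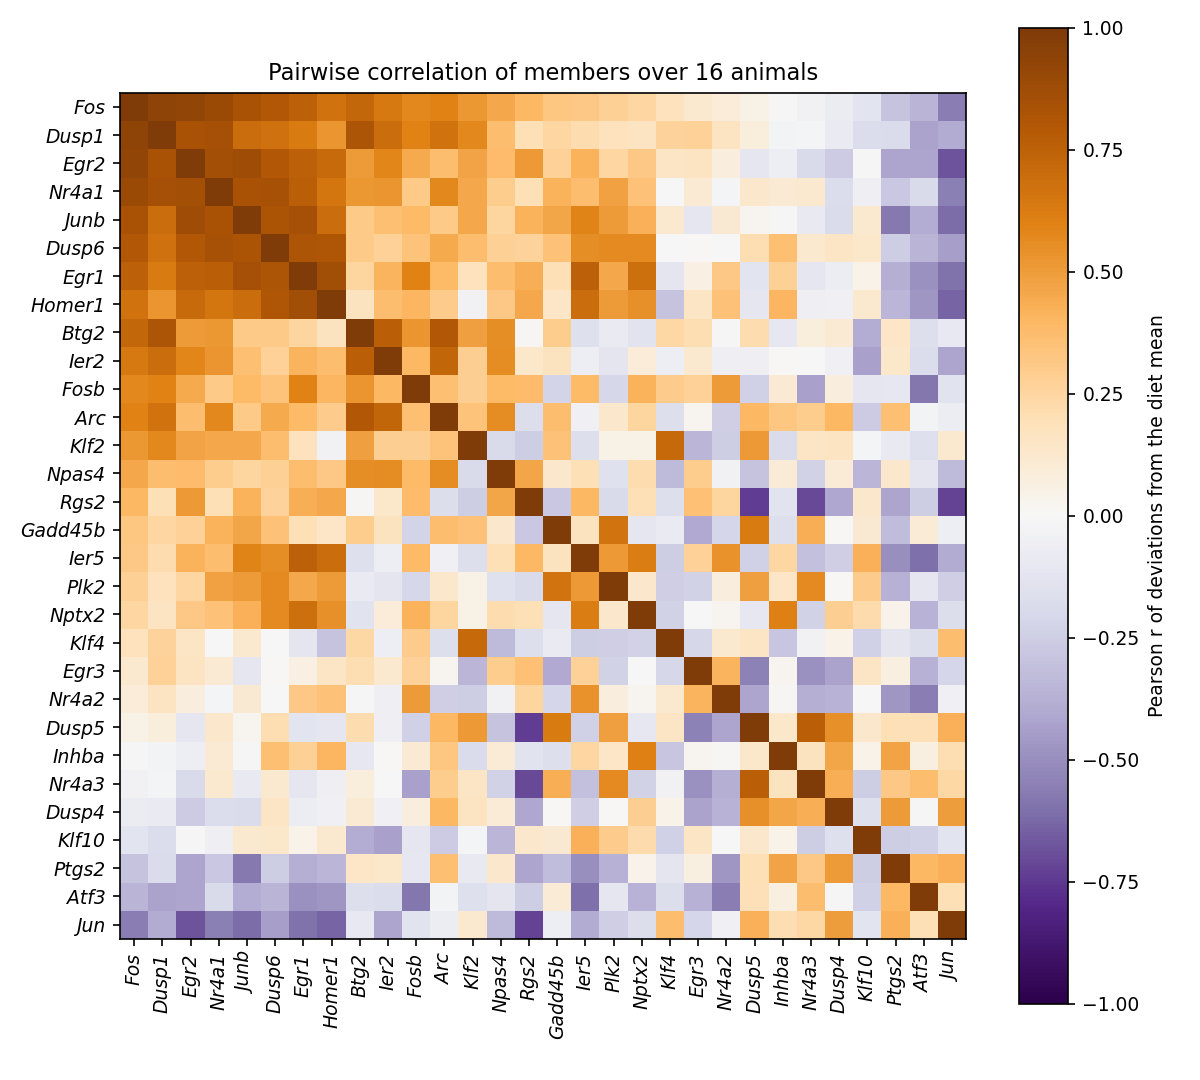
Pearson r between every pair of the 30 members, computed on deviations from the diet mean over 16 animals (colour), with genes in the order of their correlation with Fos on both axes. The upper left block from Fos to Homer1 is positive throughout, and the last rows, Atf3 and Jun, are mostly negative against that block.

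Each of the 30 members was then used as the anchor in the same limma fit, also after the data had been seen. Egr1 as the anchor called 8 of 29 members, with 9.16% of all genes (1124 genes). Junb called 7 of 29 with 7.74% of all genes, and Homer1 called 6 of 29 with 7.26%. These 3 anchors thus called more genes, and more members, than any other of the 30. At an unadjusted p under 0.05 their shares were 27.2%, 27.2% and 27.3% of genes in that order, against 17.4% for Fos. The shares for Nr4a1 and Dusp1 were 17.7% and 10.2%. Fos, Dusp1 and Nr4a1 called 6, 1 and 1 genes, and 12 members called 0 genes at an adjusted p under 0.05. These were Arc, Npas4, Btg2, Ier2, Fosb, Klf4, Klf10, Dusp6, Gadd45b, Inhba, Nptx2 and Ptgs2, with between 2.38% (Klf10) and 20.7% (Dusp6) of genes at an unadjusted p under 0.05. Egr1 ran against the mean of 8 astrocyte markers (r = -0.65, rho = -0.65) and with that of 7 endothelial markers (r = 0.62, rho = 0.58). Of 80 such relations between members and marker lists none passed adjustment (smallest adjusted permutation p = 0.246). The coefficient of Egr1 with the astrocyte list was -0.81 within arrays 10 to 24, -0.51 within the largest batch and -0.68 without PIO animal 15 and control animal 3, the farthest on that list. Egr2 went with the striatal list at r = 0.59, which was 0.01 without PIO animals 14 and 15, the farthest on that list.

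Among genes outside the list, the 10 that most resembled the mean centred profile of Fos, Arc, Egr1, Junb, Nr4a1 and Dusp1 over 16 animals, by r within diet, were Rundc1 (0.91), Bcat2 (0.87), Slc7a6 (0.86), Tmem245 (0.86), Otud3 (0.85), Cdc42bpb (0.84), Pop7 (0.84), Sidt2 (0.84), Edc4 (0.83) and Cdk9 (0.83). None of these stands on the list of other activity-induced genes described next.

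The machinery that induces these genes was taken as a list of 22 genes, of which 18 were tested, and 0 of 18 passed adjustment for diet. At an unadjusted p under 0.05 there was 1 higher and 0 lower, against 7.00% of all genes. That was Elk1, a partner of serum response factor, at 8.73 ± 0.15 with PIO and 8.57 ± 0.090 in controls (SD, n = 8 each; difference 0.17, SE 0.062, adjusted p = 0.681 by limma). Next by p were Adcy1, an adenylyl cyclase (-0.11, SE 0.059), and Rps6ka5, the CREB kinase MSK1 (0.17, SE 0.092). For array number 3 of 18 stood at an unadjusted p under 0.05, against 10.2% of all genes, each higher in arrays 1 to 6 by limma. They were Creb1, which encodes CREB (0.20, SE 0.052, with the smallest adjusted p of the 18, 0.241), Elk4, a partner of serum response factor (0.19, SE 0.055), and Braf, a kinase of the ERK cascade (0.08, SE 0.038). Between the diets Creb1 differed by -0.02 (SE 0.066). For the interaction 1 of 18 stood there, against 6.46% of all genes, which was Crebbp, the coactivator CBP (-0.21, SE 0.092). Camk4 (1.16, SE 0.60) and Mef2a (-0.16, SE 0.090) followed. None of the 18 was called against Fos by permutation, and their median r with it was 0.06.

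Of 36 other activity-induced genes 28 were tested, and 0 of 28 passed adjustment for diet, with 2 higher and 0 lower at an unadjusted p under 0.05, against 7.00% of all genes. Crem, a CREB family member with an inducible repressor form, was at 8.25 to 8.78 in PIO animals against 8.01 to 8.31 in controls (difference 0.26, SE 0.079, adjusted p = 0.599 by limma). Vgf, a secreted neuropeptide precursor, differed by 0.19 (SE 0.074, adjusted p = 0.681), and Mcl1, an antiapoptotic protein, by 0.10 (SE 0.055). For array number 6 of 28 stood at an unadjusted p under 0.05, against 10.2% of all genes. The smallest p values were those of Lonrf3 (0.37, SE 0.095, adjusted p = 0.237), Errfi1, an inhibitor of the EGF receptor (0.28, SE 0.076, adjusted p = 0.241), and Rgs4, a regulator of G protein signalling (-0.36, SE 0.12, adjusted p = 0.330 by limma, low minus high). For the interaction 2 of 28 stood there, against 6.46% of all genes, the clock gene Per1 (-0.57, SE 0.14) and the synaptotagmin Syt4 (0.97, SE 0.37), with Nptx1 next (0.21, SE 0.12). Bdnf, the neurotrophin induced by activity, differed by -0.05 (SE 0.079) and had r = -0.08 with Fos. The median pairwise r was 0.02 in this list and 0.05 in the upstream list.

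Promoters of members were read from a RefSeq table (build GRCm38.p6) that gives 250 bases before to 50 after each gene's start, 300 in all. It held 24 of the 32 members with 29 promoters, 5 of them of Egr2. The letters searched, on both strands, were the CREB-binding core TGACG, the full cyclic AMP response element TGACGTCA (which holds the core on each strand), the serum response factor site known as the CArG box, the AP-1 site TGANTCA, the EGR site GCGNGGGCG and the element TATAA. The core was in 72.4% of the 29 member promoters (19 of 24 genes), against 20.8% of all 32851 promoters and 30.2% of the 12840 promoters of genes tested here. The full element was in 10.3% (Btg2, Dusp1 and Plk2) against 1.79% of all and 2.90% of the promoters of tested genes. The EGR site was in 27.6% against 5.55% of all and 10.8% of those of tested genes. The element TATAA was in 41.4% against 24.9% of all and 13.6% of those of tested genes. The AP-1 site was in 0 of 29 against 7.81% of all and 4.95% of those of tested genes. The CArG box was in 5 of 29, of which 4 were windows of Egr2 and 1 was of Dusp5, against 1.63% of all and 1.36% of those of tested genes. The Egr2 windows starting at 67537619, 67537620 and 67537680 overlap and show the same CArG box, so they are not separate observations. The Egr2 window starting at 67537316 ends before them and holds a different CArG box.

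The promoters of Fos, the 4 genes that followed it most closely and Jun, which did not, are shown so that their motifs can be compared. Capitals mark the core TGACG or its reverse complement, the full element, the CArG box and the element TATAA. The Fos promoter lies at chr12:85473640-85473939 on the plus strand, with cores at positions -129 and -66 from the start and TATAA at -33.
Fos: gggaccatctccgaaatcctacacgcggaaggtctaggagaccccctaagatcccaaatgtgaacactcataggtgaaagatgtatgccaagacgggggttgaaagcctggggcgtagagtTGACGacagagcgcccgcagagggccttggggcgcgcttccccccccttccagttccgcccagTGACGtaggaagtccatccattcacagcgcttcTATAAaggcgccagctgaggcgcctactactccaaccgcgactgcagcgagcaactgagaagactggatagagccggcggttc
The Dusp1 promoter lies at chr17:26508423-26508722 on the minus strand, with the full element at -143 and another core at -191.
Dusp1: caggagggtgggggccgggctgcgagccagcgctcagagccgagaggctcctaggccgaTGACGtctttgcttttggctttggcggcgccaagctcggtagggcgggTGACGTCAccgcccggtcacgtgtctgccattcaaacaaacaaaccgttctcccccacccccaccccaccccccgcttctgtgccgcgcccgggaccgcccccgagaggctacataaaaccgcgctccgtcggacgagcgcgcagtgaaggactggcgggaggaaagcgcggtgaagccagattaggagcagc
The Egr2 window shown is 1 of 5, at chr10:67537619-67537918 on the plus strand, with a CArG box at -72 between cores at -111 and -55.
Egr2: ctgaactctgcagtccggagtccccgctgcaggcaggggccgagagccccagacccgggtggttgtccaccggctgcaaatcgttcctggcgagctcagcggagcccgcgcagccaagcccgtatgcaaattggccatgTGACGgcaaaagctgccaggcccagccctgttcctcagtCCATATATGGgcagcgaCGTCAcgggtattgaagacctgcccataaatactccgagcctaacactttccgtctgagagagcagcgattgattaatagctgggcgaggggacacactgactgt
The Nr4a1 promoter lies at chr15:101266596-101266895 on the plus strand and holds 4 cores.
Nr4a1: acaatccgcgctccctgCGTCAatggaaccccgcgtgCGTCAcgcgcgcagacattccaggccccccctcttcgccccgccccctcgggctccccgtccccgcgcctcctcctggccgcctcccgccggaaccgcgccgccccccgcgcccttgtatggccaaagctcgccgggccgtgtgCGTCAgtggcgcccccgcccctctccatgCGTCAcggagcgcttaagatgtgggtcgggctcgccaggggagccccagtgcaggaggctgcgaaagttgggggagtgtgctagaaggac
The Junb promoter lies at chr8:84978699-84978998 on the minus strand, with 1 core at -106 and TATAA at 1.
Junb: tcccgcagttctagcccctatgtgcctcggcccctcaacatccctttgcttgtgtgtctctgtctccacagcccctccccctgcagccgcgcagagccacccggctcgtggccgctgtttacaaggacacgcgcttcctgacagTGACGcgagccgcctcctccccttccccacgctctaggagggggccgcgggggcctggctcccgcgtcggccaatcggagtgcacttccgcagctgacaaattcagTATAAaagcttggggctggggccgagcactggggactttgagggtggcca
The Jun promoter lies at chr4:95052173-95052472 on the minus strand and holds none of the letters searched.
Jun: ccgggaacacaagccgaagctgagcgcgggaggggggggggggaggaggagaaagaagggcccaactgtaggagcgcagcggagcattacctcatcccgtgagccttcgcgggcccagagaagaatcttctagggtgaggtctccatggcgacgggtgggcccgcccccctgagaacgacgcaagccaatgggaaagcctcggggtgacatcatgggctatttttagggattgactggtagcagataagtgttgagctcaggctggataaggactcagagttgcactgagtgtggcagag
The windows shown of the 5 genes that moved together held the core, and that of Jun did not. The Egr2 windows starting at 67535249 and 67537316, which are not shown, hold no core. Dusp6, whose r with Fos was 0.80 within diet, has no match of these letters in its window. Nr4a2 and Nr4a3, whose r with Fos was 0.09 and -0.03 within diet, hold 4 cores each, so the presence of the core did not separate the members that followed Fos from those that did not.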

How the data were processed

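RNA of 16 hippocampi (8 PIO, 8 control) was measured on Affymetrix arrays. The authors deposited 1 log2 value per probe set and array, a scale taken from the values (0.33 to 16.6), with the normalization step not given in the sources used here. MAS5, GCRMA and R 2.7.1 are named per the submitters' processing notes, without a role. No per-sample depth exists for arrays. The table held 45101 probe sets, of which 34945 had 1 symbol in the platform annotation, 932 several and 9160 none. Probe sets with a mean over 16 arrays above the 40th percentile (3.58) were kept, 1 per gene by the highest mean, which left 12266 genes.

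Every difference comes from linear models over all genes with moderated variances (limma 3.58.1, R 4.3.3; lmFit, eBayes), with Benjamini-Hochberg adjustment over all genes and a threshold of 0.05. Array number range (low minus high) was tested with diet as a term, and the interaction separately. Correlations with Fos used 100000 permutations and were adjusted over all 12265 other genes, the widest reading of the family in the plan. Array batch, a code at the end of the array description whose meaning is not given, had 3 values and was used only as a grouping of arrays, the largest with 6 PIO and 5 control arrays. Statistics were tested on simulated data. Python 3.11.15, numpy 2.4.6 and scipy 1.17.1 were used.

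The members and gene lists were chosen with earlier results of these data known. Values are named for the 6 members with the smallest p for diet, the 6 with the largest SD, the 6 with the smallest p for array number, and Arc, Fos, Egr1, Junb, Npas4, Nr4a1 and Homer1. They are also named for up to 3 genes of each related list with the smallest p in each comparison, and for the 10 genes most like the core profile. Other members are given by difference or range, and Bdnf and Creb1 as known genes of their lists. The alternatives were the filter, the scaling, probe sets taken singly, batch, array range, array weights, priors, marker means as covariates and animals left out. The limma slope on Fos, the use of each of 30 members as the anchor, and Spearman and left-out animals for Fos were added after seeing the data, the slope because the permutation calls proved unstable. Promoter sequences are RefSeq's (GRCm38.p6), and Arc, Dusp4, Egr1, Egr3, Ier2, Klf10, Nptx2 and Sik1 had no entry in the table used.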

Additional observations from a re-analysis of the deposited data

Results flagged for a closer look

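Each member was tested in each diet for an animal that stood apart from the other 7 by Dixon's ratio, 64 groups in all, and 8 groups passed the critical value, where chance gives about 1 in 20. PIO animal 15 had the highest Klf10 value of its diet at 10.75 log2 units, with the next at 10.27, and the lowest Atf3 value at 3.56, with the next at 3.67. That animal and control animal 6 also stood above their diets for Egr4, at 3.07 (next 2.96) and 3.22 (next 2.91), but Egr4 lay below the filter on low values. Control animal 6 had an Egr2 value of 8.06, with the next at 6.84, and it also had the highest Fos value of all 16 animals. Control animal 8 stood above its diet for Inhba at 5.90 (next 5.70) and for Atf3 at 4.08 (next 3.76). Control animal 4 had the highest Plk2 value of its diet at 12.42, with the next at 12.22. Atf3 lay only just above the filter, so its low values have little meaning as expression.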

How the results depend on the processing

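No member was called for diet, array number range or their interaction in the main fit or under any alternative run. Of 1100 values of single members under alternatives, 1057 kept their direction and 43 changed it. With no call to keep or lose, these counts describe signs only. Counts at an unadjusted p under 0.05 moved. For diet (2 members) the count was 1 with the striatal covariate (Jun, which was not 1 of the 2), 0 in the largest batch, 6 in arrays 10 to 24 and 1 to 5 with 1 animal left out (1 without PIO 15 or control 6, 5 without PIO 10). For array range (1 member) it was 0 with a common median or the striatal covariate, 2 with every probe set or the choroid plexus covariate, 3 with the batch block or control animals alone, 4 with array weights, and 0 to 3 with 1 animal left out (0 without PIO 12, 13, 14 or 15 or control 2, 3 or 6, 2 without PIO 10, PIO 11 or control 4, and 3 without control 8). For the interaction (4 members) it was 1 to 5 with 1 animal left out (1 without PIO 10, and 2 without PIO 13, control 1 or control 7).

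The 4 members correlated with Fos became 0 in arrays 10 to 24, in the largest batch, without the 2 farthest animals, by Spearman, without PIO 14 to 16 and with Arc or Dusp1 as the anchor, and 7 with Egr1. With 1 animal left out the count was 0 to 6 (0 without PIO 11, 14 or 15 or control 2, 3 or 6, and 2 without control 4). The 3 members with a slope on Fos became 1 in arrays 10 to 24 and 1 in the largest batch, and 2 to 8 with 1 animal left out (2 without PIO 11 or control 2, 8 without PIO 10). Smaller sets hold fewer animals, and other causes were not tested. The median pairwise r ran from 0.118 to 0.170 over all settings.

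Near-zero diet differences changed sign. Fos (0.0016) was -0.0019 with quantile scaling, -0.0030 with a common median, -0.23 with the striatal and -0.015 with the choroid covariate, -0.028 in the largest batch, -0.051 with the range block, -0.16 in arrays 10 to 24, and -0.21 without PIO 14 to 16 and -0.21 without PIO 14 and 15. With 1 animal left out it ran from -0.095 to 0.16. Egr1 was 0.0063 with the batch block, 0.0018 with the choroid and 0.075 with the endothelial covariate, and -0.13 to 0.015 with 1 animal left out. Egr2 was -0.14 with the striatal covariate, -0.13 without PIO 14 to 16 and -0.099 without PIO 14 and 15. Junb was 0.045 with the endothelial covariate, and -0.12 to 0.0066 with 1 animal left out, as Dusp1 was -0.17 to 0.028. For array range, Btg2 was -0.13 with array weights, -0.33 in control animals alone and -0.19 to 0.16 with 1 animal left out, and Klf2 was -0.12 with array weights and -0.088 to 0.39 with 1 animal left out. The cause was not tested. No paired analysis was possible because the animals of the diets share no replicate number.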
